A study of Saccharomyces cerevisiae with 4 samples.

Results

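Trehalose and glycogen are the storage carbohydrates of budding yeast. Both are built from glucose phosphates and UDP-glucose, and both pathways have synthetic and degradative enzymes whose genes are among the targets of the general stress transcription factors Msn2 and Msn4. Trehalose is a disaccharide that also protects proteins and membranes during stress, whereas glycogen is a branched glucose polymer held as a carbon reserve. The ratios of 10 genes of these pathways were examined in *Saccharomyces cerevisiae* BY4741 lacking TRK1 and TRK2, whose products form the high-affinity potassium uptake system. The genes were taken by their systematic names from a table of 6212 rows. They are TPS1, TPS2, TPS3 and TSL1 of the trehalose synthase complex, the neutral trehalase NTH1, the glycogen synthases GSY1 and GSY2, the branching enzyme GLC3, the glycogen phosphorylase GPH1 and the phosphoglucomutase PGM2. All 10 have a row in the table. Of these, 6 had a value on all 4 arrays (TPS1, TPS3, NTH1, GSY1, GSY2 and PGM2), 3 had a value on 3 arrays (TPS2, TSL1 and GLC3), and the row of GPH1 was empty on every array.

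The 4 dual-colour arrays each compared trk1 trk2 double mutant RNA with wild-type RNA, both in the BY4741 background and both from log-phase cultures at an A600 of 0.6. Both strains grew in potassium-free Translucent medium, which holds 15 µM potassium of its own, with 50 mM KCl added, so the comparison addresses the mutant under ample potassium. Per the labels there were 2 experiments, each hybridised in both dye orientations, and how the deletions were made or how many clones were used is not stated. Experiment 1 was read as arrays 1 and 2, experiment 2 as arrays 3 and 4. Mutant cDNA was labelled with Cy5 on arrays 1 and 4, and with Cy3 on the other two. The values below are log2 ratios, mutant over wild type, so each is a difference between strains and not a transcript level. The arrays measured RNA from whole cultures, so fewer cells carrying a transcript and less transcript per cell cannot be told apart.

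The arrays held 4690 to 5403 values each, with SDs of 0.53 to 0.65. The deleted genes read strongly negative where they had a value, TRK1 at −6.13 on array 1 and −4.60 on array 4, and TRK2 at −4.23 on array 4. Array 4 correlated least with the others across genes, with Pearson's r of 0.26 to 0.39, against 0.53 to 0.79 among arrays 1, 2 and 3. The storage carbohydrate genes are therefore given with and without array 4.

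Within the 10 genes, GSY1 and PGM2 fell in the mutant, with log2 ratios of −1.71 and −1.91 (limma adjusted p = 0.0230 and 0.0483), and no member rose. Of all genes tested, 1.74% fell and 1.62% rose. Each of these 2 calls was lost in some of the alternatives given below. All 9 genes with a value had a negative mean, as had 2719 of the 4882 genes with at least 1 array in each experiment. All 9 were also negative on array 4, as were 49.4% of all values there. The most negative were PGM2, GSY1 and the trehalose synthase regulatory subunit TSL1, and the least negative was the trehalase NTH1. Each of the 9 genes had its lowest value on array 4, where 7 of the 9 read below −1. Ratios on arrays 1, 2 and 3 were smaller. Without array 4, GSY1 and PGM2 were the 2 of 6 genes tested that passed, against 2.88% of all genes called lower in that fit.

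**Figure D1:**
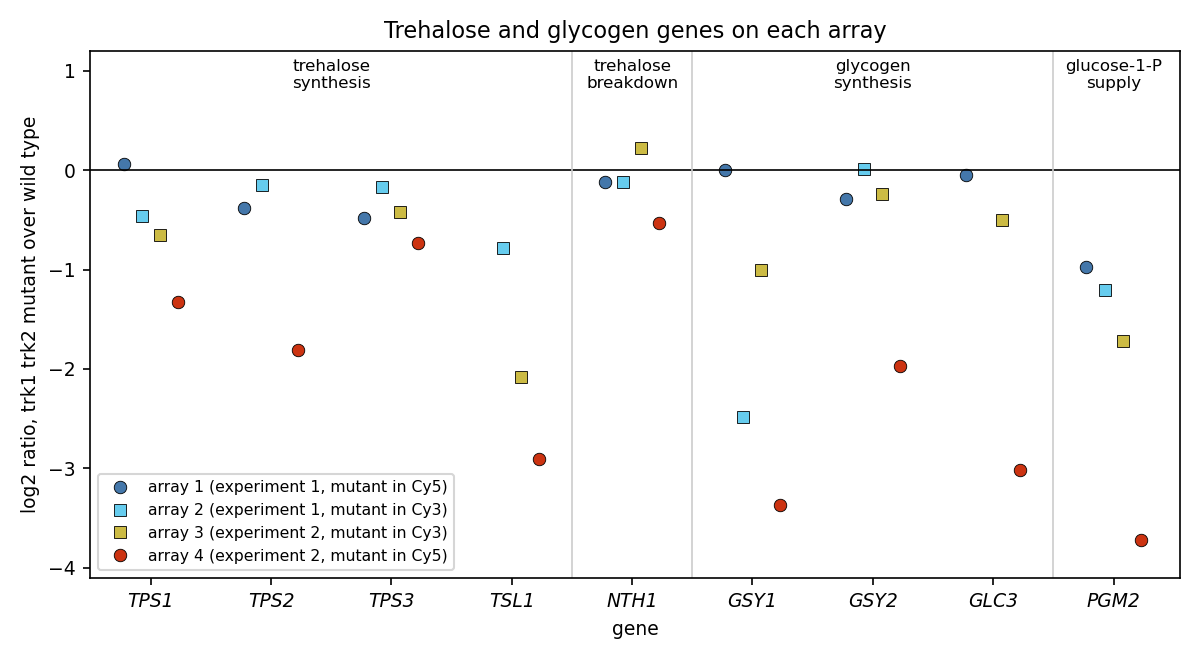
Log2 ratio of mutant over wild type (vertical axis) for the 9 genes with a value (horizontal axis), with 1 point for each array and circles for arrays with the mutant in Cy5, squares for those with the mutant in Cy3. The lowest point of every gene is array 4, from −0.53 for NTH1 to −3.72 for PGM2.

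The trehalose synthase complex consists of the catalytic subunits Tps1, which makes trehalose 6-phosphate, and Tps2, which removes the phosphate, with the regulatory subunits Tps3 and Tsl1. TPS1 (YBR126C) read 0.063, −0.46, −0.66 and −1.33 on arrays 1 to 4. It was thus negative on 3 of the 4 arrays, and the values spread over both sides of 0. Its mean was −0.60 ± 0.23 (SE, n = 2 experiments; limma adjusted p = 0.210), with a 95% interval from −1.14 to −0.049. TPS3 (YMR261C) was negative throughout, at −0.48, −0.17, −0.42 and −0.74, and had the narrowest range of the 4 synthase genes. Its mean was −0.45 ± 0.17 (adjusted p = 0.205). Without array 4 the means of TPS1 and TPS3 were −0.43 and −0.37.

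TPS2 (YDR074W) had no value on array 3 and read −0.38, −0.15 and −1.81 on arrays 1, 2 and 4. The 2 values of experiment 1 lay near 0, and the single value of experiment 2 was far below them. TSL1 (YML100W) had no value on array 1 and read −0.79, −2.08 and −2.91 on arrays 2, 3 and 4, so it was negative on every array that listed it. On arrays 3 and 4 it lay in the lowest 0.342% and 0.333% of all values of the array. Neither gene entered the test on genes with 4 values. In a fit of genes with at least 1 array in each experiment, TSL1 had a mean of −1.64 ± 0.40 (adjusted p = 0.116) and TPS2 of −1.04 ± 0.36 (adjusted p = 0.213). With arrays not averaged, where a dye-swapped repeat counts as a replicate, TSL1 passed (−1.93, adjusted p = 0.0488). That fit called 3.43% of all genes lower. TPS3 passed with the other pairing of arrays (adjusted p = 0.0457), where 11.1% of all genes were called lower. TPS1 and TPS2 passed in none of the alternatives run. The fit without array 4 took only genes with a value on every remaining array, so it left out TPS2, TSL1 and GLC3. Their averages over the remaining arrays were −0.27, −1.43 and −0.28. TSL1 and GLC3 still had 1 array of each experiment, but no such fit was run, and TPS2 had none of experiment 2. The 2 regulatory subunits differed on each array that listed both, and TSL1 minus TPS3 was −0.61, −1.66 and −2.17 on arrays 2, 3 and 4. TSL1 was also below TPS1 on those 3 arrays, by a mean of 1.11 ± 0.68 (SD, n = 3 arrays). These differences between genes were not tested.

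NTH1 (YDR001C) encodes the cytosolic trehalase, which splits trehalose into glucose. It read −0.118, −0.116, 0.221 and −0.531, with both signs among the arrays. Its mean was the nearest to 0 of the 9 genes, at −0.14 ± 0.16 (adjusted p = 0.672) and an interval from −0.53 to 0.26. Without array 4 its mean was 0.052. Its paralogue NTH2 was listed on arrays 3 and 4 alone, at 0.85 and −1.71, and these values have opposite signs. The vacuolar and cell wall acid trehalase ATH1 read −0.37 on array 2 and −1.78 on array 4.

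Glycogen synthase elongates the polymer from UDP-glucose. GSY1 (YFR015C) read 0.004, −2.48, −1.01 and −3.37 on arrays 1 to 4. Arrays 1 and 2, taken as dye-swapped repeats of experiment 1, differed by 2.48, one near 0 and the other among the lowest 0.107% of its array. Averaging over dyes gave experiment means of −1.24 and −2.19, and the gene fell 3.28-fold (−1.71 ± 0.25, adjusted p = 0.0230). Every other member with a value averaged lower with the mutant in Cy5, which includes array 4, as PGM2 did at −2.35 against −1.46. For GSY1 the averages over the 2 arrays with the mutant in Cy5 and the 2 with it in Cy3 were close, at −1.68 and −1.74. The first of these pools 0.004 and −3.37. The error of the test does not contain the gap between arrays 1 and 2. When the 4 arrays were counted separately the standard error was 0.50 and the adjusted p 0.0771, and with the other pairing the adjusted p was 0.0669. Without array 1 the mean was −2.34 (adjusted p = 0.00963), without array 2 it was −1.09 (adjusted p = 0.300), without array 3 it was −2.30 (adjusted p = 0.436), and without array 4 it was −1.12 ± 0.16 (adjusted p = 0.0233). In that last fit 2 of 6 members fell, GSY1 and PGM2, against 2.88% of all genes tested.

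GSY2 (YLR258W), the isoform regarded as the major glycogen synthase, read −0.286, 0.007, −0.245 and −1.97. On arrays 1, 2 and 3 it stayed within 0.3 of 0, between the 26.4th and the 58.4th percentile of each array, and on array 4 it lay in the lowest 0.944%. The mean was −0.62 ± 0.25 (adjusted p = 0.235), and without array 4 it was −0.19. GSY1 was lower than GSY2 on 3 arrays and higher by 0.29 on array 1, with a mean difference of −1.09 ± 1.16 (SD, n = 4 arrays), so the difference was smaller than its spread. The isoforms are close relatives, and signal shared between their spots could not be separated because probe sequences were not used here.

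GLC3 (YEL011W), which introduces the branches of glycogen, had no value on array 2. It read −0.048 and −0.50 on arrays 1 and 3 and −3.02 on array 4, the third lowest of the 9 genes on that array. The mean of the experiments was −0.90 ± 0.40 (adjusted p = 0.304 in the fit of genes with at least 1 array in each experiment). Among other genes of the pathway, the glycogenin GLG1, which primes the polymer, read −0.23 on array 2 and −2.04 on array 4. Its paralogue GLG2 read 0.97, −0.40 and 0.12 on arrays 1, 3 and 4. GPH1, the phosphorylase that degrades glycogen, was empty on all arrays, so the breakdown branch was represented by the debranching enzyme GDB1 (0.26, −0.32 and −1.28 on arrays 2, 3 and 4) and the sporulation glucoamylase SGA1. SGA1 was negative on every array, at −0.54, −0.95, −0.74 and −0.56, with array 2 and not array 4 the lowest, and its mean was −0.70 ± 0.16 (adjusted p = 0.0804). SGA1 passed in 5 alternatives, with an adjusted p of 0.0152 under the other pairing, 0.0231 with separate arrays, 0.0197 with a random block, 0.0371 with a dye term and 0.0344 with at least 2 arrays. Lower calls in these fits made up, in the same order, 11.1%, 5.88%, 6.86%, 3.34% and 3.43% of all genes.

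PGM2 (YMR105C), the major phosphoglucomutase, converts glucose 6-phosphate to glucose 1-phosphate, the precursor of UDP-glucose. It read −0.98, −1.20, −1.72 and −3.72 on arrays 1 to 4, below −0.9 everywhere, and was the lowest of the 9 genes on arrays 1 and 4. It was the only member in the lowest 5% of the values of every array, a position held by 0.635% of genes with 4 values. The gene fell 3.75-fold (−1.91 ± 0.36, adjusted p = 0.0483). Its value on array 4 was less negative than those of the deleted TRK1 and TRK2 on that array. Without array 4 the mean was −1.41 ± 0.20 with an adjusted p of 0.0237. The adjusted p rose above 0.05 without array 1 (0.0724), array 2 (0.0852) or array 3 (0.456), with means of −1.96, −1.85 and −2.40. The minor isoform PGM1 (YKL127W) read −0.233, −0.103, −0.009 and 0.263, with a mean of −0.02 ± 0.17 (adjusted p = 0.959). PGM2 was below PGM1 on all 4 arrays, and the difference between them was −0.75, −1.10, −1.71 and −3.98 on arrays 1 to 4.

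**Figure D2:**
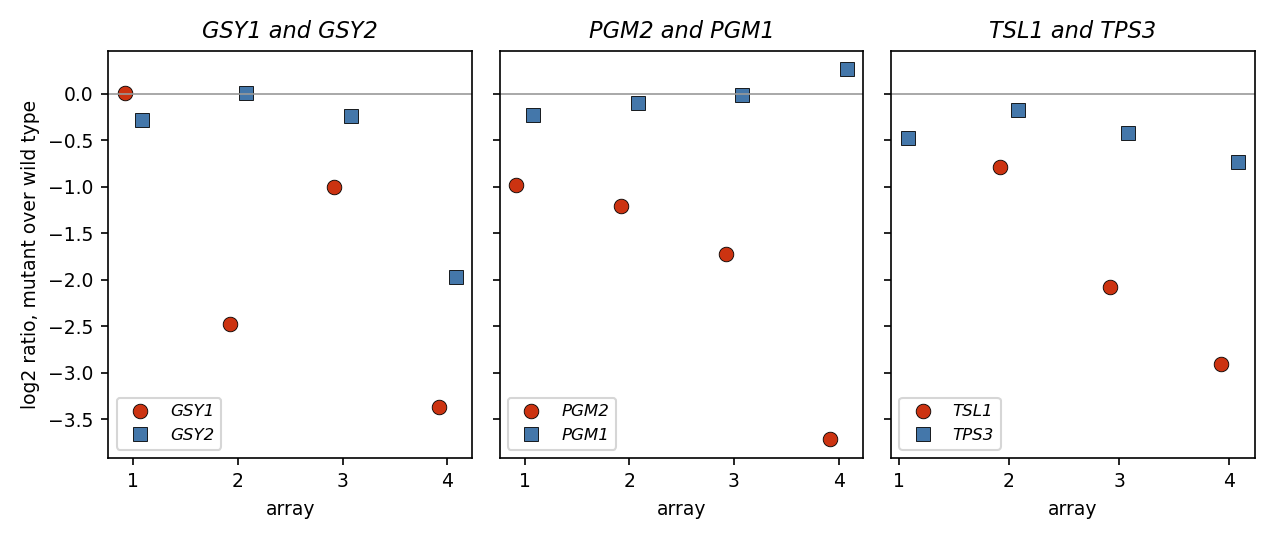
Log2 ratio of mutant over wild type (vertical axis) on arrays 1 to 4 (horizontal axis) for GSY1 and GSY2, PGM2 and PGM1, and TSL1 and TPS3, each array giving 1 point per gene. PGM2 lies below PGM1 on 4 arrays and TSL1 below TPS3 on 3, whereas GSY1 and GSY2 cross between arrays 1 and 2.

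The step after phosphoglucomutase is catalysed by UGP1 (YKL035W), the UDP-glucose pyrophosphorylase, which supplies the glucosyl donor of both pathways. UGP1 read −0.76, −1.06, −1.16 and −1.79, negative on every array and with the narrowest range of the 3 genes that fell. It fell 2.29-fold (−1.19 ± 0.20, adjusted p = 0.0356), and by 1.03 on the log2 scale without array 4 (adjusted p = 0.0297). Its adjusted p was 0.0839 without array 2, 0.389 without array 3 and 0.0665 in the fit of genes with at least 1 array in each experiment. The hexokinase isoenzyme HXK1 read −0.207, 0.012, −0.545 and −1.911, with a mean of −0.66 ± 0.28 (adjusted p = 0.252), which was −0.32 without array 4. Glucokinase GLK1 read 0.326, 0.008, −0.465 and −1.760. HXK2, the isoenzyme that predominates on glucose, was positive on all 4 arrays at 0.65, 0.20, 0.046 and 1.17 (mean 0.52 ± 0.17, adjusted p = 0.154), and array 4 was its highest. Both hexokinase genes passed with the other pairing (adjusted p = 0.0416 and 0.0474), HXK1 as lower and HXK2 as higher. That fit called 11.1% of all genes lower and 5.99% higher.

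In the test over all genes with 4 values, 2 of 6 members fell (GSY1 and PGM2) and 0 rose in limma, where all 6 means were negative. Of the 4255 genes tested, 1.74% fell and 1.62% rose. An unadjusted p under 0.05 was reached by 5 of the 6, all but NTH1, and by 861 of the 4255 genes tested. The median of the 6 means was −0.61, against −0.040 over all genes tested, of which 55.2% had a negative mean. TPS3 and PGM2 were negative on all 4 arrays, 2 of 6 members, against 21.1% of genes. Centring the arrays on their medians gave a members' median of −0.56, and scaling them one of −0.53, with 2 members lower in each. Over all genes the medians were then 0.011 and 0.011, and 2.33% and 2.12% were called lower. In the fit with at least 1 array in each experiment, 1 of 9 members fell (GSY1, adjusted p = 0.0475), against 0.799% of 4882 genes, and PGM2 missed the threshold there (adjusted p = 0.0849).

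Ordered by the means of that fit, the 9 genes ran PGM2, GSY1, TSL1, TPS2, GLC3, GSY2, TPS1, TPS3 and NTH1. Neighbours in this order differed by less than the larger of their standard errors, apart from TSL1 and TPS2, which were 0.60 apart, and TPS3 and NTH1, which were 0.32 apart. Those standard errors are of single genes and not of a difference, and TSL1 and TPS2 lack values on different arrays. No order within any neighbouring pair can therefore be read from these arrays.

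**Figure D3:**
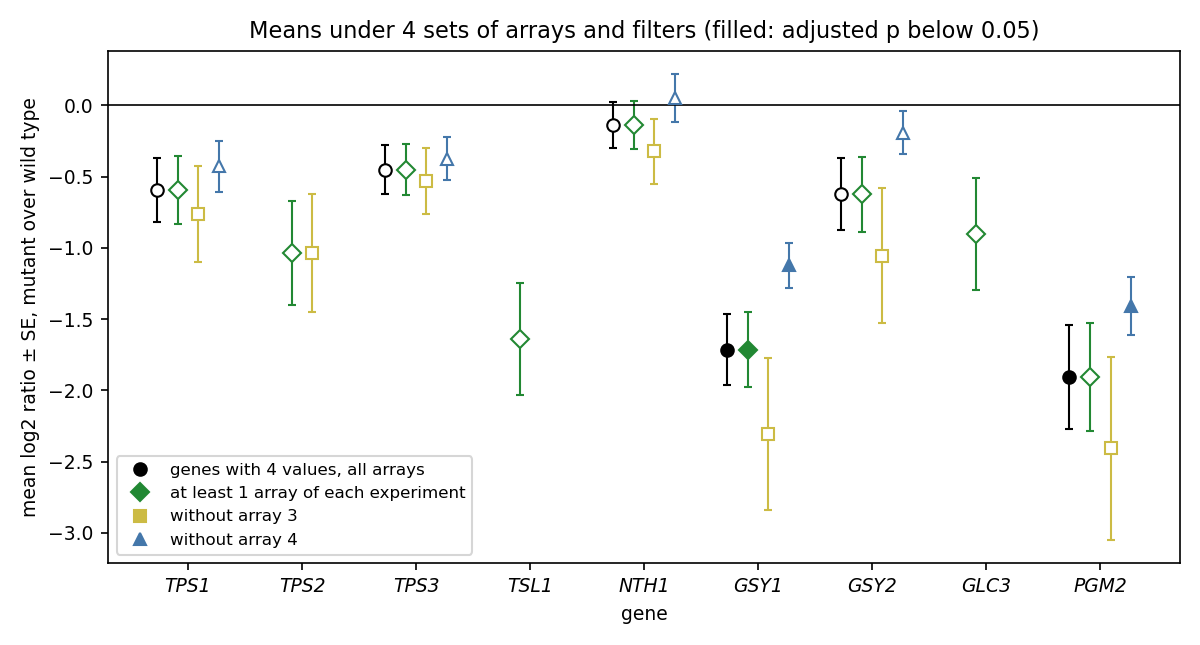
Mean log2 ratio of mutant over wild type with limma's SE as bars (vertical axis) for each gene (horizontal axis) under 4 choices of arrays and filters, with filled symbols where the adjusted p was below 0.05. GSY1 and PGM2 hold filled symbols without array 4, at −1.12 and −1.41, and none of the genes does without array 3.

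The share of each array in these means was uneven. Members read below −1 in 0 of 8 cases on array 1, 2 of 8 on array 2, 3 of 8 on array 3 and 7 of 9 on array 4. Over all genes the corresponding shares were 3.29%, 3.43%, 5.03% and 4.42%. The members' medians were −0.20, −0.32, −0.58 and −1.97 on arrays 1 to 4, against array medians of −0.021, −0.091, −0.10 and 0.009. Over the 6 members with 4 values the median on array 4 was −1.65. All 9 members were lowest on array 4, as were 24.8% of the 4735 genes that had a value there and on at least 2 other arrays. All 9 also had a lower mean in experiment 2 than in experiment 1, as did 48% of genes with 4 values. Array 3 was read as the same experiment with the dyes exchanged, a pairing that the labels do not state. Across genes, array 3 had a Pearson's r of 0.39 with array 4 and 0.67 with array 2. Array 4 was below array 3 for each of the 6 members with 4 values. The median difference, array 4 minus array 3, was −1.24 in the members and 0.16 over all genes. The gap between arrays 3 and 4 was larger than the mean ratio for TPS1, NTH1, GSY1, GSY2, GLC3 and PGM2, and smaller for TPS3 and TSL1. The mutant's dye differs between those arrays. Whether a dye effect, a technical property of array 4 or a difference between RNA samples accompanies these lower values was not tested. On arrays 1 and 4, which share the dye orientation, PGM2 read −0.98 and −3.72 and GSY1 read 0.004 and −3.37.

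**Figure D4:**
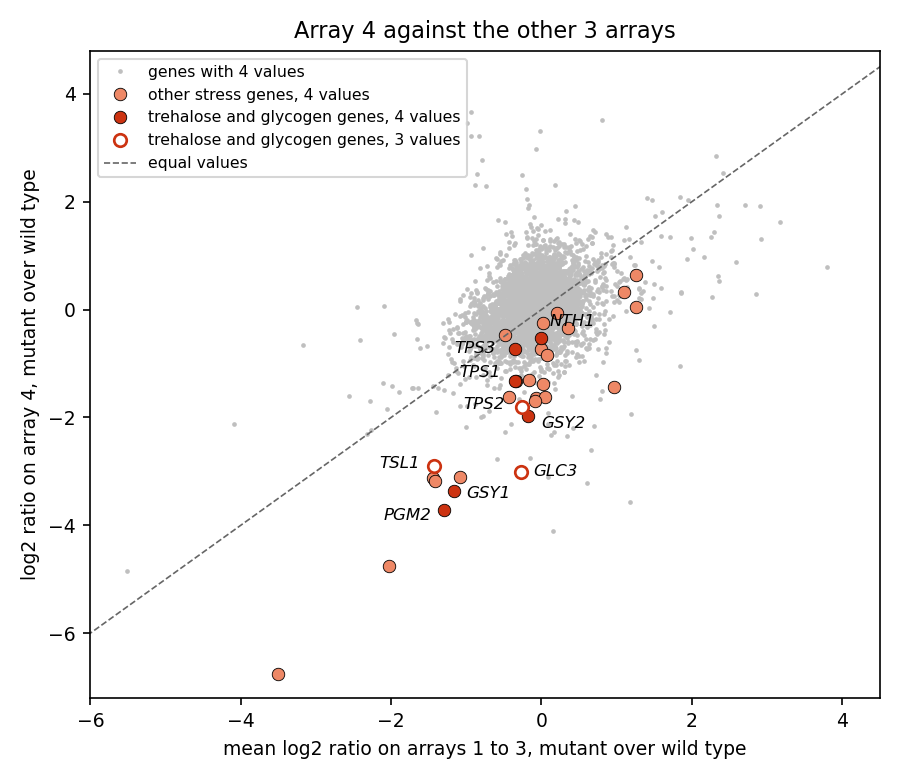
Log2 ratio on array 4 (vertical axis) against the mean log2 ratio on arrays 1 to 3 (horizontal axis), with grey points for genes that had 4 values, coloured points for the storage carbohydrate and other stress genes, and open points for members with 3 values. The 9 trehalose and glycogen genes lie below the dashed line of equal values, with GLC3 farthest below it, at a difference of −2.74.

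Among the other genes of storage carbohydrate metabolism, UGP1 passed the test with experiment means. In a list of 24 further genes, covering glucose phosphorylation, the priming, debranching and phosphatase proteins of glycogen, the kinase Pho85 with its glycogen cyclins, and the regulators of trehalase, 15 had 4 values. Of these 1 fell and 0 rose, against 1.74% and 1.62% of all genes tested. An unadjusted p under 0.05 was reached by 3 of the 15, and 8 had a negative mean, as had 55.2% of all genes tested. The median of the 15 means was −0.006. Over all genes tested in limma, 861 of 4255 reached an unadjusted p under 0.05. The phosphatase targeting subunit GAC1, which brings Glc7 to glycogen synthase, read −0.41, −0.99 and −2.75 on arrays 1, 3 and 4, and its homologue PIG1 read 0.59, 0.26, −0.73 and −0.025. PHO85, PCL8 and PCL10, whose products phosphorylate and thereby restrain glycogen synthase, had means of 0.072, −0.18 and −0.006. The phosphatase GLC7 stood at 0.043. Of the 20 listed genes with a value on array 4 and at least 2 other arrays, 9 were lowest on array 4.

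Among 10 upstream regulators, 8 had 4 values and 0 passed in the main limma fit, against 1.74% of all genes lower and 1.62% higher. An unadjusted p under 0.05 was reached by 2 of the 8, and 6 had a negative mean, as had 55.2% of all genes tested. Over all genes tested, 861 of 4255 reached an unadjusted p under 0.05. The 2 regulators that did were GIS1, a stress transcription factor (−0.58 ± 0.17, adjusted p = 0.135), and YAK1, a kinase that acts against growth (−0.47 ± 0.19, adjusted p = 0.235). GIS1 passed with the other pairing of arrays (adjusted p = 0.0481), where 11.1% of all genes were called lower. MSN2 and MSN4 read −0.20 and −0.35 (adjusted p = 0.535 and 0.372). The ratios are those of transcripts and carry no information on the activity of these proteins.

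Stress genes outside carbohydrate storage gave a similar split between arrays. In a list of 26, 22 had 4 values, with a median of −0.41. Of these 5 fell and 2 rose, against 1.74% and 1.62% of all genes tested. The genes that fell were HSP12 (−4.32 ± 0.47), HSP26 (−2.71 ± 0.36), GAD1 (−1.87 ± 0.31), TFS1 (−1.86 ± 0.29) and MSC1 (−1.59 ± 0.29), and those that rose were YGP1 (1.11 ± 0.19) and DDR48 (0.95 ± 0.17), with adjusted p from 0.00835 for HSP12 to 0.0472 for DDR48. The counts were 2 lower and 0 higher with at least 1 array in each experiment, 3 and 0 without array 1 or without array 2, 0 and 0 without array 3, and 5 and 3 without array 4. Over all genes the lower shares in these fits were, in the same order, 0.799%, 0.958%, 0.695%, 0% and 2.88%. The higher shares were 0.819%, 0.798%, 0.941%, 0% and 2.24%. Robust shrinkage gave HSP12 an adjusted p of 0.0521. The medians of this list were 0.14, −0.092, −0.32 and −1.37 on arrays 1 to 4, and 20 of the 23 genes with array 4 and at least 2 more values were lowest there. Without array 4 the list's median was −0.098, against −0.40 for the 6 members and −0.076 for all genes. The difference between the medians of the members and the stress list was not tested.

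**Figure D5:**
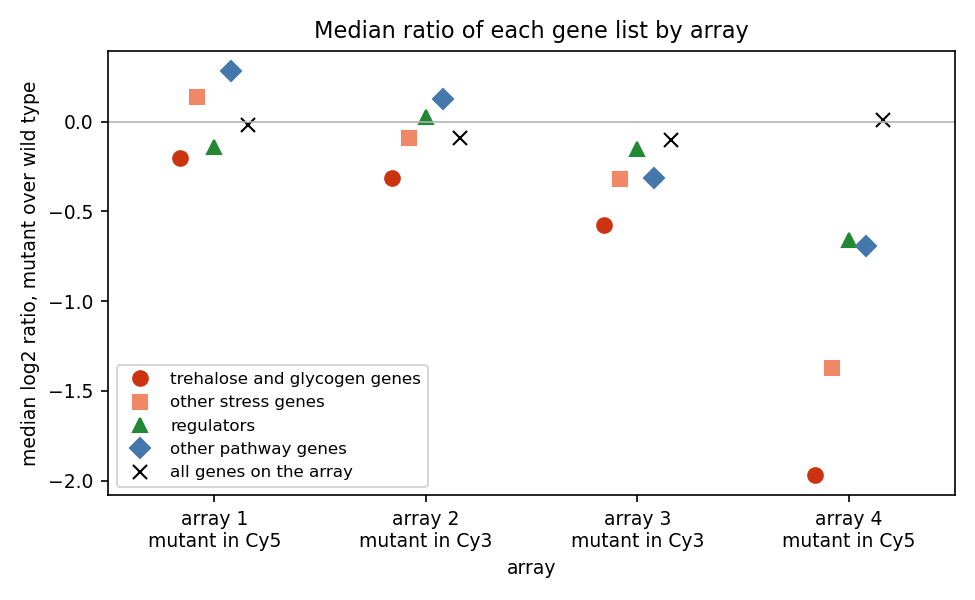
Median log2 ratio of mutant over wild type (vertical axis) of each gene list and of all genes on arrays 1 to 4 (horizontal axis), with 1 point per list and array over the genes that have a value there. The trehalose and glycogen genes have the lowest median on each array, from −0.20 on array 1 to −1.97 on array 4, while the median of all genes stays between −0.10 and 0.009.

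The 5 genes outside the list whose values over the 4 arrays came closest to the members' median values (−0.20, −0.32, −0.54 and −1.65) were SIL1, ATG19, NNR1, HXK1 and LEU5, by Euclidean distances of 0.16 to 0.43. SIL1, a nucleotide exchange factor of the endoplasmic reticulum, was nearest, at −0.25, −0.33, −0.68 and −1.59. None of the 5 passed the test, with adjusted p from 0.160 for SIL1 to 0.310 for NNR1. With the other pairing of arrays SIL1 (0.0290), ATG19 (0.0402), HXK1 (0.0416) and LEU5 (0.0235) passed, as did 11.1% of all genes in the lower direction. These genes were chosen by the same values that were tested, so their passing is not a separate result. HXK1 was the only gene of sugar phosphorylation among them.

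Genes lying next to the members on the chromosome had mean ratios of both signs, with a median near 0. Of the protein-coding neighbours on either side, 13 had 4 values, with a median of 0.004, 6 negative means and 0 calls in limma. Neither neighbour of GSY1 was among the 13. The 13 means ran from −0.40 for SNF11 to 0.45 for PTC4, and YRB1, at 0.43, was farther from 0 than NTH1 beside it. An unadjusted p under 0.05 was reached by 2 of the 13, and by 861 of all 4255 genes tested. Next to PGM2, YPK2 read 0.22, 0.048, 0.26 and −0.058. Beside GSY2, HSP60 read −0.19, −0.24, −0.41 and −0.19, while the uncharacterised YLR257W on the other side read 0.10, 0.10, 0.064 and −1.09, also lowest on array 4.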

How the data were processed

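The authors deposited log ratios, read here as log2, with empty cells in every array. Per the labels, the authors copied 8 µg of total RNA from an oligo(dT) primer with indirect dye labelling, and did not use spots smaller than 120 µm or dimmer than 100 units. The normalization, centring, log base and ratio direction were not stated there. Values were read as base 2. Mutant over wild type was taken from the negative TRK1 and TRK2 on arrays 1 and 4, both with the mutant in Cy5. Neither gene had a value on arrays 2 and 3, where the same direction was assumed. Those arrays correlated positively with array 1, at Pearson's r of 0.79 and 0.53. Arrays were paired by the shared wording of their descriptions, each pair holding both dye orientations. Only the word independent in the design text says that experiments came from separate cultures.

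Row names were matched to RefSeq locus tags (R64, 5662 of 6212 rows), used for symbols and gene order only. Arrays of an experiment were averaged, and the 2 experiment means tested against 0 with limma 3.58.1 (lmFit, eBayes; R 4.3.3) in 4255 genes with 4 values, adjusting by Benjamini-Hochberg and calling at 0.05. The prior degrees of freedom were 5.335. On simulated data, with genes drawn independently, the false share of calls exceeded the threshold in most draws. The number of arrays limits the precision.

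Members and lists were chosen with earlier results of these data known. Named genes were the 10 members, genes of 3 further lists past the test, PGM1, NTH2, TRK1, TRK2 and the 5 nearest profiles. Further pathway genes, regulators and neighbours were named after their values were seen. DDR2 was on the stress list and has no row in the table. HOR2 carries another symbol in RefSeq. Alternatives changed pairing, replication, dye term, scaling, shrinkage, filter and arrays. For 1 listed regulator no result is reported here, and the list counts still include it.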

Additional observations from a re-analysis of the deposited data

Results flagged for a closer look

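A total of 20 genes with 4 values, members and others named above, were screened for 1 array standing apart, by Dixon's ratio of the gap to the range against its critical value, which chance exceeds in about 5% of groups. Array 4 stood apart and low for 3 of them. GSY2 read −1.97 there (ratio 0.852), MSC1 −3.10 (ratio 0.856) and ATG19 −1.32 (ratio 0.840). ATG19 was chosen for values near the members' median values, which were lowest on array 4, so its low value there was part of that choice. The 5% therefore does not apply to ATG19 or to the other genes chosen in that way. MSC1 and the other listed genes outside the members, apart from PGM1, were screened because they passed the test on these same values, so it does not apply to them either. Members were chosen with earlier results known, and the 5% takes the 4 arrays as independent, whereas they were read as 2 dye-swapped pairs. PGM2, GSY1, TPS1, TPS3 and NTH1 were also lowest on array 4 and did not exceed the ratio.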

How the results depend on the processing

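Against 2 members called lower in the main analysis, the count was 1 with 4 separate arrays, the experiment as a random block, robust shrinkage, at least 2 arrays or at least 1 array of each experiment, and 0 with a dye term. That 1 was PGM2 with separate arrays or a random block, GSY1 with robust shrinkage or at least 1 array of each experiment, and TSL1 with at least 2 arrays. With the other pairing the 2 were PGM2 and TPS3. Leaving out an array gave 0 to 2 members. Over all genes, 74 lower and 69 higher calls became 473 and 255 with the other pairing, 250 and 163 with 4 separate arrays, 292 and 185 with a random block, 179 and 130 with at least 2 arrays, and 39 and 40 with at least 1 array of each experiment. The dye term gave 142 lower, and centring gave 106 higher. Without 1 array, lower calls ran from 0 to 123 and higher from 0 to 96, with 0 in both from limma without array 3, where 404 genes had an unadjusted p under 0.05. The cause of these changes was not tested. No member rose in any alternative, and the members' median stayed between −1.04 and −0.40, over 6 to 9 genes. NTH1 lay between −0.32 and 0.052 when an array was left out, positive without array 4. PGM1 lay between −0.089 and 0.048, and was 0.031 with centred and 0.024 with scaled arrays. Among 266 recomputed values of 23 named genes, 211 kept direction and side of the threshold, 44 lost a call, 6 gained one and 5 changed sign. Spot brightness was not used here, so signal over background could not be weighed.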
